A study of Mus musculus with 8 samples.

Results

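Endothelial cells line blood and lymph vessels, and 37 mouse genes that they use were followed here in whole tumours. The genes were taken by symbol from a list of endothelial adhesion molecules, receptors, transcription factors, secreted proteins and lymphatic markers. All 37 were found among the 56691 genes of the count table, and 32 had enough reads to be tested. Members were set by symbol and not by a cut on measured values, but earlier results of these data were known when the list was chosen.

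The tumours were formed by the mouse colon adenocarcinoma line MC38 in its strain of origin, C57BL/6J, so that vessels, blood cells and fibroblasts came from an immunocompetent host. One group of 4 tumour samples came from mice dosed with the compound C26 (10 mg/kg on alternate days) over 2 weeks, and the other of 4 from control mice. Only a code name is given for C26, and neither what control mice received nor whether every sample is a separate animal is stated, so p-values measure the spread between these samples, which may be technical. No other allele or agent is named for either group. Polyadenylated RNA of the whole tumour was sequenced, and in such bulk RNA more cells of a type and more RNA per cell cannot be told apart.

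Blood endothelium is held together by adherens and tight junctions built on VE-cadherin and claudin 5, and its identity is kept by ETS factors such as ERG and FLI1 together with SOX7, SOX17 and SOX18. Growing tumour vessels sprout behind tip cells, which make apelin, ESM1 and angiopoietin 2, while quiescent vessels rely on the angiopoietin receptor TEK, on S1P signalling and on contact with pericytes. Lymphatic endothelium depends on PROX1 and carries the hyaluronan receptor LYVE1.

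Levels are CPM, the share of a library's counts in parts per 1000000, after TMM scaling, which corrects for library composition. Fold changes are given on the log2 scale as C26 over control with their SE. A gene is called higher or lower where edgeR's quasi-likelihood test gave a Benjamini-Hochberg adjusted p under 0.05 over all 15755 genes tested. Total counts ran from 18362600 to 21501163 in C26 libraries and from 17075176 to 21517425 in control libraries. Of all tested genes 7.76% were called, 3.64% as higher and 4.12% as lower in C26. Among the called genes 46.9% were higher, against 78.7% when scaled by total library size, 31.2% after correcting for transcript length and GC content and 70.2% with muscle RNA as a covariate.

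Of the 32 tested endothelial genes 6 rose in C26 tumours and 0 fell, or 18.8% against 3.64% of all tested genes called higher. They were the receptor genes Clec14a, Aplnr, S1pr1 and Cd34, the matrix gene Mmrn2 and the adaptor gene She. With these 6, 14 of the 32 had an unadjusted p under 0.05, or 43.8%, against 25.6% of all tested genes. The log2 fold change was above 0 in 26 of 32 members, against 51% of all tested genes, with a median of 0.28 against 0.01 for all genes tested. It ranged from -0.40 (Lyl1) to 1.05 (Aplnr). In 7 of 32 members every C26 library stood above every control library, against 7.91% of all tested genes, and in 0 members every C26 library stood below, against 8.14%.

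Promoter windows from 250 bases before to 50 after the annotated start were available from RefSeq for 19 of the 37 genes, among them Clec14a, She and Cd34 of the 6 that rose. The windows of these 3 are shown because no other gene that rose had one. That of Robo4, a guidance receptor gene that did not pass, is shown for comparison. Capitals mark the ETS words CCGGAAG and CAGGAAG or the SOX words ACAAAG and ACAATG on either strand, and both families were searched on both strands.
Clec14a (GRCm38.p6, chr12:58269209-58269508, minus strand): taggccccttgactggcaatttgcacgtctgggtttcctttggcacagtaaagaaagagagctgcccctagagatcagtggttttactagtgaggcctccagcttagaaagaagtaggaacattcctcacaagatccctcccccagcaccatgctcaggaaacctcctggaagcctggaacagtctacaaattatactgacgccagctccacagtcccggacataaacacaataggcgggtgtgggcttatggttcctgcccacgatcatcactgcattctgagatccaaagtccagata
She (GRCm38.p6, chr3:89831120-89831419, plus strand): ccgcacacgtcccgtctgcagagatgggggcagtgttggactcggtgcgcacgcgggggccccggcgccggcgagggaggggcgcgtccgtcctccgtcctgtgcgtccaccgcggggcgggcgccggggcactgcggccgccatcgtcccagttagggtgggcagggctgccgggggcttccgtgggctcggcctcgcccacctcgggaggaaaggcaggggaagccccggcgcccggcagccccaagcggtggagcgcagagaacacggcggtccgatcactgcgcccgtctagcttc
Cd34 (GRCm38.p6, chr1:194938571-194938870, plus strand): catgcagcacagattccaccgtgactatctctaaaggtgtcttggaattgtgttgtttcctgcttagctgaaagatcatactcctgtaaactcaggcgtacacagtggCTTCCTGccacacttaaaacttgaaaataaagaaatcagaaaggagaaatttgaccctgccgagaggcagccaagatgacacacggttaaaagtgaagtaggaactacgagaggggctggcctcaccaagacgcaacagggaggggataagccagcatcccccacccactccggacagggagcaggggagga
Robo4 (GRCm38.p6, chr9:37401722-37402021, plus strand): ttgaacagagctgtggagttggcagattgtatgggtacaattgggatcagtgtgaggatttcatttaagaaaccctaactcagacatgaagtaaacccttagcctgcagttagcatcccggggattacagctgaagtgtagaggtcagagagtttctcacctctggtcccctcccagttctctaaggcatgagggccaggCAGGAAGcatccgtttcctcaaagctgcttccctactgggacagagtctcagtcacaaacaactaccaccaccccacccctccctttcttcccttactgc

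The windows of Cd34 and Robo4 each held 1 ETS word, those of Clec14a and She held none, and no SOX word was found in the 4 windows. Taking the first listed window of each gene, 9 of 19 endothelial genes (47.4%) held an ETS word, against 20.9% of all genes in the RefSeq table. A SOX word was present in 3 of 19 (15.8%), against 28.8% of all genes. The ETS words were found in windows of genes that rose and of genes that did not pass, and a match describes the letters of the window and not a bound site.

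The surface receptors held the most calls of any role, with 4 of 10 higher. Clec14a (chromosome 12, 58264720 to 58269290), a C-type lectin-like receptor of endothelial cells, had 3.75, 3.06, 3.37 and 2.79 CPM in C26 libraries 1 to 4, against 1.37, 1.16, 2.42 and 1.82 CPM in control libraries 1 to 4 (all coordinates are GRCm38). All C26 libraries lay above all control libraries, and Clec14a rose by 0.94 ± 0.234 log2 units (SE, edgeR adjusted p = 0.0246). Its ligand in the vessel matrix, multimerin 2, is encoded by Mmrn2 (chromosome 14, 34375465 to 34404287). This gene had 5.81, 4.36, 4.10 and 3.14 CPM in C26 libraries, against 1.89, 2.48, 3.01 and 2.12 CPM in control libraries, again without overlap. Mmrn2 rose by 0.87 ± 0.217 log2 units (SE, edgeR adjusted p = 0.0247). Cd93, which encodes the other endothelial receptor for multimerin 2, was the most abundant of the 3 per kilobase of exon and did not pass. It averaged 50.3 ± 4.49 CPM in C26 and 46.1 ± 11.4 CPM in control (SD, n = 4 each), with a log2 fold change of 0.12 ± 0.153 (edgeR adjusted p = 0.651).

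Aplnr (chromosome 2, 85136225 to 85139923) encodes the apelin receptor, a G protein-coupled receptor of veins and sprouting vessels. It had 9.98, 8.46, 11.4 and 5.01 CPM in C26 libraries, against 3.21, 5.71, 4.84 and 2.97 CPM in control libraries. The groups overlapped because C26 library 4 lay below control library 2, and the log2 fold change was 1.05 ± 0.259 (SE, edgeR adjusted p = 0.0291). Apln, which encodes its ligand apelin, did not pass. It had 22.2, 25.9, 29.7 and 20.5 CPM in C26 libraries, against 27.3, 15.1, 44.5 and 27.9 CPM in control libraries (log2 -0.23 ± 0.312, edgeR adjusted p = 0.697). Both the lowest and the highest Apln level belonged to control libraries.

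S1pr1 (chromosome 3, 115710433 to 115715072), the gene of the receptor for sphingosine-1-phosphate that supports the endothelial barrier and is also used by lymphocytes, rose by a smaller amount. It had 19.0, 15.0, 15.0 and 16.6 CPM in C26 libraries, against 10.0, 11, 13.0 and 14.4 CPM in control libraries, without overlap (log2 0.44 ± 0.128, edgeR adjusted p = 0.0461). She (chromosome 3, 89831370 to 89858834), which encodes an SH2 domain adaptor, had the lowest level per kilobase of the 6 genes. It had 2.01, 1.40, 1.96 and 1.16 CPM in C26 libraries, against 0.896, 0.634, 0.890 and 0.727 CPM in control libraries, without overlap (log2 1.04 ± 0.277, edgeR adjusted p = 0.0315). Cd34 (chromosome 1, 194938819 to 194961279) encodes a sialomucin that fibroblasts and blood progenitors also carry. It had 218.28, 268.75, 239.65 and 260.97 CPM in C26 libraries, against 205.81, 201.96, 213.21 and 210.85 CPM in control libraries. The groups did not overlap, and the change of 0.25 ± 0.0733 was the smallest of the 6 and the nearest to the threshold (edgeR adjusted p = 0.0493). Cd34 passed in 6 of 18 alternative fits, DESeq2 and limma-voom included, and missed the threshold with RLE factors (edgeR adjusted p = 0.0565). The summed level of fibroblast genes, most of it Col3a1, was also higher, at 5357 to 7441 CPM in C26 and 3090 to 4848 CPM in control. Within C26, library 1 had the highest fibroblast sum and the lowest Cd34 level, while control library 3 was highest in both within control. The part of fibroblasts in the Cd34 level was not tested.

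**Figure D1:**
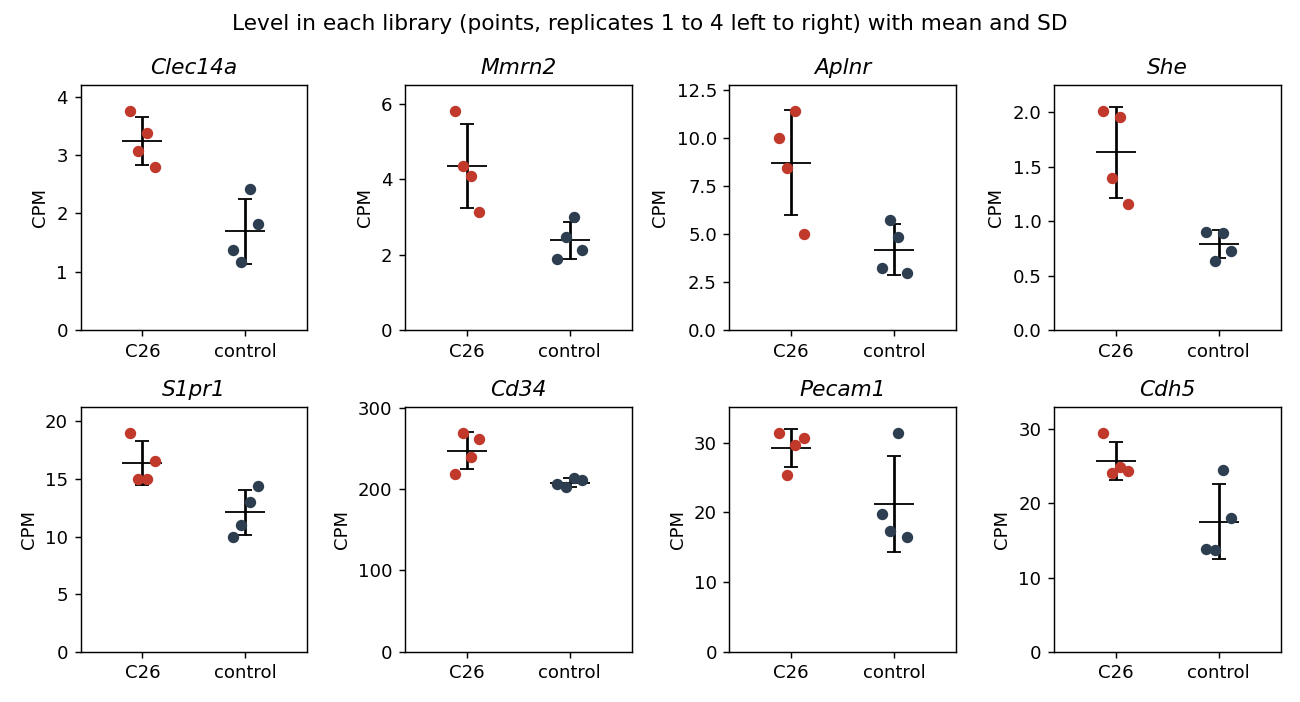
Level in CPM (vertical axes, from 0) of the 6 endothelial genes that rose and of Pecam1 and Cdh5 in each of the 4 C26 libraries (red) and 4 control libraries (dark), replicates 1 to 4 from left to right, with mean and SD in black. Clec14a, Mmrn2, She, S1pr1 and Cd34 do not overlap between the groups, whereas for Pecam1 and Cdh5 control library 3 reaches the C26 levels.

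The calls depended on single libraries, and with 1 library left out between 0 and 6 members passed, all as higher. Without C26 library 1, 2, 3 or 4 in turn, 3, 3, 1 and 5 members passed, when 4.42%, 2.33%, 2.46% and 1.92% of all tested genes were called higher. Without control library 1, 2, 3 or 4 in turn, 0 (9 at an unadjusted p under 0.05 in edgeR), 1, 6 and 2 members passed, when 1.55%, 1.79%, 1.73% and 2.49% of all tested genes were called higher. Leaving out control library 1 or 2 or C26 library 3 ended the call of Clec14a, whose edgeR adjusted p then reached 0.0794. Mmrn2 was lost without C26 library 1 or control library 1, 2 or 4 (up to 0.0782). Aplnr passed only without C26 library 4 or control library 2 and She only without C26 library 2 or 4, with edgeR adjusted p reaching 0.0831 and 0.0865. S1pr1 passed only without control library 4 and Cd34 only without C26 library 1, with edgeR adjusted p reaching 0.142 and 0.129. Over these 8 fits the log2 fold change stayed between 0.79 and 1.16 for Clec14a, 0.70 and 1.0 for Mmrn2, 0.90 and 1.24 for Aplnr, 0.93 and 1.17 for She, 0.35 and 0.53 for S1pr1 and 0.20 and 0.30 for Cd34. Correcting for transcript length and GC content left 1.17% of all tested genes called higher, and 2 members rose, Mmrn2 (edgeR adjusted p = 0.0468) and Icam2 (0.0482). In that fit the log2 fold change was 0.82 for Clec14a, 0.99 for Aplnr, 0.93 for She, 0.38 for S1pr1 and 0.22 for Cd34, with edgeR adjusted p from 0.0626 to 0.105. A covariate for muscle RNA, which itself differed with group, ended all 6 calls, with the values given beside the muscle genes.

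The remaining receptor genes did not pass. Robo4 averaged 10.7 ± 2.56 CPM in C26 and 7.71 ± 2.24 CPM in control (log2 0.47 ± 0.198, edgeR adjusted p = 0.153). Adgrl4, an adhesion G protein-coupled receptor of sprouting vessels, averaged 5.74 ± 0.821 CPM in C26 and 4.11 ± 1.34 CPM in control (log2 0.48 ± 0.203, edgeR adjusted p = 0.152). Both passed without control library 3 (edgeR adjusted p = 0.033 and 0.0403), whose level of each was the highest of the controls. Eng, the TGF-beta coreceptor endoglin, stood at 19.5 ± 1.5 CPM in C26 and 16.9 ± 2.40 CPM in control (edgeR adjusted p = 0.259). Adgrf5 (12.1 ± 1.6 CPM in C26 and 11.2 ± 3.86 CPM in control) and Ecscr (16.1 ± 2.12 CPM in C26 and 17.6 ± 3.07 CPM in control) differed by less than the spread between replicates.

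The genes that most often serve to count vessels gave higher means in C26 but overlapping groups. Pecam1 (CD31; chromosome 11, 106654217 to 106750628) had 31.4, 25.3, 29.6 and 30.7 CPM in C26 libraries, against 19.7, 17.3, 31.4 and 16.5 CPM in control libraries. Control library 3 equalled the highest C26 library, and the log2 fold change was 0.46 ± 0.182 (SE, edgeR adjusted p = 0.144). Cdh5 (VE-cadherin; chromosome 8, 104101625 to 104144511) had 29.5, 24.1, 24.9 and 24.3 CPM in C26 libraries, against 13.9, 13.7, 24.5 and 18 CPM in control libraries (log2 0.55 ± 0.162, edgeR adjusted p = 0.0551). Cdh5 passed in 6 of 18 alternative fits, among them DESeq2 (adjusted p = 0.0133), limma-voom (0.0267) and total library size (0.0242). Without control library 3 both passed, with log2 fold changes of 0.71 for Pecam1 and 0.76 for Cdh5 (edgeR adjusted p = 0.00483 and 0.00631). Icam2, a ligand of leukocyte integrins, did not overlap between groups, at 3.37 to 4.65 CPM in C26 and 2.30 to 3.26 CPM in control, and did not pass (log2 0.57 ± 0.190, edgeR adjusted p = 0.0729). Esam (14.0 ± 3.11 CPM in C26 and 11.9 ± 3.06 CPM in control) and the sialomucin gene Emcn (12 ± 1.90 CPM in C26 and 10.6 ± 3.48 CPM in control) overlapped. So did the tight junction gene Cldn5 (1.79 ± 0.367 CPM in C26 and 1.83 ± 0.645 CPM in control, log2 -0.03 ± 0.264).

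Of the 7 transcription factor genes 0 passed in edgeR, and 1 (Lyl1) had an unadjusted p under 0.05. Among the ETS factors, Erg averaged 3.30 ± 0.688 CPM in C26 and 2.45 ± 1.04 CPM in control, and Fli1 9.77 ± 1.65 CPM in C26 and 8.75 ± 1.65 CPM in control. The SOX genes differed in their fold changes. Sox17 (log2 0.64 ± 0.382) and Sox18 (log2 0.50 ± 0.264) had positive values and Sox7 had 0.00 ± 0.267, with edgeR adjusted p of 0.31, 0.25 and 0.998. Tal1 averaged 2.64 ± 0.783 CPM in C26 and 2.45 ± 0.0971 CPM in control. Lyl1, a bHLH factor shared by endothelium and blood cells, had the lowest fold change of all members. It stood at 17 ± 3.63 CPM in C26 and 22.3 ± 5.51 CPM in control (log2 -0.40 ± 0.182, edgeR adjusted p = 0.194), and its exons overlap Nfix on the opposite strand.

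Among genes for signalling and transport, She alone passed. Nos3, the endothelial nitric oxide synthase gene, averaged 4.04 ± 0.673 CPM in C26 and 2.88 ± 0.851 CPM in control (log2 0.48 ± 0.215, edgeR adjusted p = 0.17). Plvap, which forms the diaphragms of fenestrated capillaries, averaged 16.7 ± 5.31 CPM in C26 and 13.5 ± 3.66 CPM in control. Gpihbp1, which holds lipoprotein lipase on capillaries, averaged 5.23 ± 0.691 CPM in C26 and 5.50 ± 0.719 CPM in control. Rasip1, needed for vessel lumens, averaged 3.27 ± 0.562 CPM in C26 and 3.67 ± 1.32 CPM in control. The secreted factor gene Egfl7, host of miR-126, averaged 23.8 ± 5.76 CPM in C26 and 22.2 ± 4.38 CPM in control. None of these 5 passed, with edgeR adjusted p between 0.17 and 0.797.

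**Figure D2:**
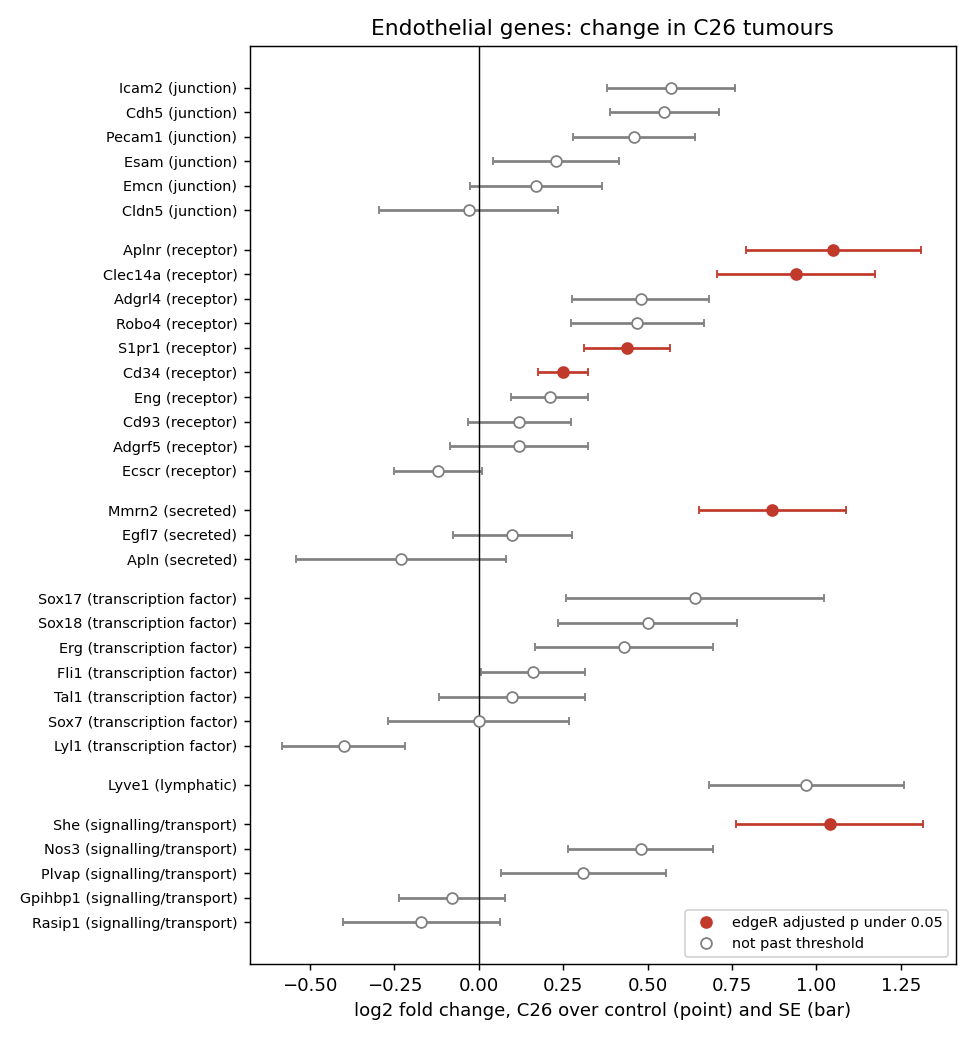
Log2 fold change of C26 over control (horizontal axis, points, with SE as bars) for the 32 tested endothelial genes, ordered by role from top to bottom. Filled red points passed edgeR's adjusted threshold, and 26 of the 32 points lie above 0.

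The list holds 3 genes used as lymphatic markers, of which Lyve1 alone could be tested. Lyve1, which some macrophages also express, had 2.38, 3.32, 4.70 and 2.03 CPM in C26 libraries, against 1.75, 0.899, 1.93 and 1.76 CPM in control libraries. The groups did not overlap, and Lyve1 stood just outside the threshold (log2 0.97 ± 0.289, edgeR adjusted p = 0.0503), as Cd34 stood just inside it. Lyve1 passed in 7 of 18 alternative fits, among them DESeq2 (adjusted p = 0.0279), limma-voom (0.0327) and total library size (0.029). Mmrn1, a relative of Mmrn2 made by lymphatic endothelium and platelets, had 15, 2, 6 and 0 counts in C26 libraries and 0 counts in every control library. Its pooled level of 0.288 CPM in C26 was at least 7.38-fold higher than the 0.039 CPM that 3 counts over the control group would give. Of its 23 reads 15 came from C26 library 1. Prox1 had 7, 1, 1 and 0 counts in C26 libraries, against 1, 0, 0 and 0 counts in control libraries, and these too lay mainly in C26 library 1. Neither gene had enough reads for the test.

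The other 3 genes below the filter mark activated or storage-granule endothelium. Selp (P-selectin) had 3, 7, 7 and 3 counts in C26 libraries, against 1, 2, 1 and 1 counts in control libraries. Sele (E-selectin), which catches leukocytes on inflamed vessels, had 7 counts in all 4 C26 libraries together and 2 in all 4 control libraries together. Vwf, the von Willebrand factor gene, had 34 counts in C26 and 25 in control, which made it lower per kilobase of exon than the 32 tested members in both groups. These 3 genes were not tested, and no fold change is given for them.

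Per kilobase of exon, the 3 highest members were the same in both groups. Cd34 came first with 33.9 CPM per kb in C26 and 28.5 in control. Lyl1 (9.44 CPM per kb in C26 and 12.4 in control) and Ecscr (9.20 in C26 and 10.0 in control) followed in both groups. Cdh5 stood at 6.12 CPM per kb in C26 and 4.17 in control and Pecam1 at 4.69 in C26 and 3.41 in control, each at the same rank in both groups. Clec14a (0.709 CPM per kb in C26 and 0.370 in control) and She (0.226 in C26 and 0.109 in control) lay near the low end of the tested members. Aplnr was placed 14th in C26 and 22nd in control. Pecam1, Cdh5, Emcn and Cldn5 were read in all 8 libraries. Of the lymphatic genes, Prox1 was at or near 0. Lyve1 (means of 3.11 CPM in C26 and 1.58 CPM in control) and Flt4 (2.6 CPM in C26 and 1.63 CPM in control) were read in all 8 libraries.

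Control library 3 stood out among the controls. Within the control group library 3 had the highest level for 25 of 32 tested members, and control library 2 the lowest for 16. Within the C26 group library 1 was highest for 17 and library 3 for 11, while libraries 2 and 4 were lowest for 13 and 14. The mean log2 CPM of the 32 members was 3.21, 2.98, 3.17 and 2.91 in C26 libraries 1 to 4, against 2.59, 2.46, 3.15 and 2.70 in control libraries 1 to 4. Control library 3 therefore fell among the C26 libraries and the other 3 control libraries below them. Members varied more within control, with a median coefficient of variation of 16.8% in C26 and 28.9% in control, and it was larger in control for 23 of 32 members.

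**Figure D3:**
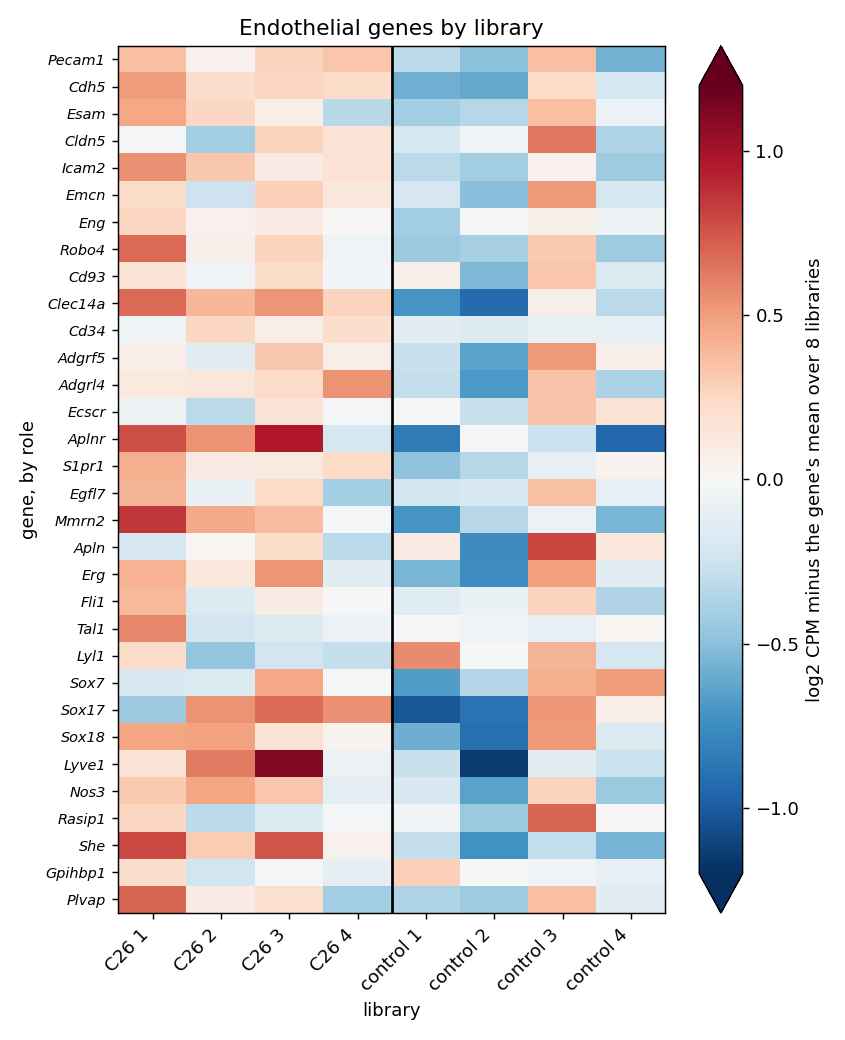
Log2 CPM of the 32 tested endothelial genes (rows, by role) in each library (columns, C26 left of the line and control right of it), as the difference from each gene's mean over the 8 libraries, with colours limited to -1.2 and 1.2. Control library 3 is highest of its group for 25 of 32 genes and resembles the C26 libraries. Clec14a, Mmrn2, She and Aplnr, already called as higher in C26, lie below every C26 library there. The margin to C26 library 4 is small for Mmrn2 (3.01 against 3.14 CPM) and Aplnr (4.84 against 5.01 CPM).

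Other vessel genes, from 5 lists that share no member with the 37, gave 5 of 31 tested genes higher and 0 lower. This was 16.1%, against 3.64% of all tested genes called higher, and 4 of the 5 were in a list of 13 further endothelial genes. Ptprb, the phosphatase VE-PTP that restrains TEK, averaged 8.85 ± 0.956 CPM in C26 and 5.04 ± 1.05 CPM in control (log2 0.81 ± 0.159, edgeR adjusted p = 0.00767). It passed without each library in turn, with adjusted p up to 0.0307, but not after correcting for length and GC (0.0504). Tek rose as well (log2 0.89 ± 0.205, edgeR adjusted p = 0.0168) and was lost without control library 1 (0.0502) or without both C26 libraries 2 and 3 (0.0521). Cyyr1 and Ushbp1 also rose, with log2 fold changes of 1.15 and 0.66 (edgeR adjusted p = 0.0268 and 0.0409). Cyyr1 was lost without C26 library 2 or 3 or control library 1 or 4, and Ushbp1 passed only without control library 3 or C26 library 2. The highest edgeR adjusted p of these fits was 0.0775 for Cyyr1 and 0.122 for Ushbp1. Kdr, the main VEGF receptor gene, averaged 13.9 ± 2.84 CPM in C26 and 10.5 ± 1.06 CPM in control and did not pass (log2 0.42 ± 0.144, edgeR adjusted p = 0.0826). With the muscle covariate the calls of Ptprb, Tek, Cyyr1 and Ushbp1 were all lost (edgeR adjusted p = 0.123, 0.166, 0.416 and 0.145).

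In the arterial list 0 of 7 tested genes passed in edgeR (2 with unadjusted p under 0.05), with a median log2 fold change of 0.38. These 2 were Notch4 (log2 0.42, edgeR adjusted p = 0.0801) and Hey1 (log2 0.63, edgeR adjusted p = 0.13). In the venous list 0 of 3 passed in edgeR (0 at an unadjusted p under 0.05), with Nr2f2 at -0.15 and Vcam1 at 0.07, both also expressed by stromal cells. The tip cell list had a median of -0.17, and 1 of 5 genes rose. This was Nid2, which encodes a basement membrane protein also made by fibroblasts, at 28.7 ± 2.06 CPM in C26 and 20.9 ± 1.52 CPM in control (log2 0.45 ± 0.0895, edgeR adjusted p = 0.00792), and it passed in 17 of 18 alternative fits, the exception being the muscle covariate (log2 0.52, edgeR adjusted p = 0.0914). Esm1 and Angpt2, named after their values were seen, did not pass. Esm1 had 10.8, 8.46, 12.8 and 10.6 CPM in C26 libraries, against 14.4, 6.34, 24.5 and 12.7 CPM in control libraries (log2 -0.44 ± 0.371, edgeR adjusted p = 0.504). Angpt2 had 5.49, 5.66, 5.79 and 5.42 CPM in C26 libraries, against 5.94, 4.28, 12.5 and 7.46 CPM in control libraries (log2 -0.43 ± 0.259, edgeR adjusted p = 0.319). As with Apln, control library 3 held the highest level of both. Of 3 further lymphatic genes tested 0 passed in edgeR (2 at an unadjusted p under 0.05), with Flt4 at log2 0.67 and Foxc2 at -0.52 (edgeR adjusted p = 0.0885 and 0.0527). That list of 5 summed to 101 to 105 CPM in C26 and 94.5 to 118 CPM in control. Most of this was Pdpn, at 88.7 to 94.3 CPM in C26 and 80.8 to 101 CPM in control.

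Genes of mural cells, the pericytes and smooth muscle cells that wrap vessels, gave 1 of 12 higher (8.33%, against 3.64% of all tested genes called higher). Their log2 fold changes ran from -0.28 to 0.79 with a median of 0.12, 8 above 0 and 4 below. Rgs5, the pericyte regulator of G protein signalling, had 23.6, 19.2, 16.5 and 16.9 CPM in C26 libraries, against 10.2, 8.99, 14.8 and 10.0 CPM in control libraries. The groups did not overlap (log2 0.79 ± 0.157, edgeR adjusted p = 0.00953), and Rgs5 passed without each library in turn, with adjusted p up to 0.0342. It was lost after correcting for length and GC (log2 0.65, edgeR adjusted p = 0.0527) and with the muscle covariate (log2 0.93, edgeR adjusted p = 0.108). The whole list summed to 305 to 383 CPM in C26 and 282 to 377 CPM in control. Most of this was Pdgfrb, at 223 to 289 CPM in C26 and 221 to 282 CPM in control.

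Markers of other cells also differed between these libraries. Red blood cell genes summed to 8.41 to 11.9 CPM in C26 libraries and 23.0 to 100 CPM in control libraries, with the highest value in control library 3, the control library highest in endothelial genes. All 5 tested red cell genes had log2 fold changes below 0 and 1 of them fell, the beta-globin gene Hbb-bt (log2 -2.34, edgeR adjusted p = 0.0136), while Slc4a1 had 0 to 0.0519 CPM in every library. Skeletal muscle genes summed to 80.6, 767, 195 and 58.4 CPM in C26 libraries 1 to 4, against 35.9, 75.4, 38.0 and 37.4 CPM in control libraries 1 to 4. All 12 tested muscle genes had log2 fold changes above 0, against 51% of all tested genes. Of these 1 rose (8.33%, against 3.64% of all tested genes called higher), the fast myosin gene Myh1 (edgeR adjusted p = 0.0108). C26 library 2, with the most muscle RNA, had a mean endothelial level of 2.98 log2 CPM, below C26 libraries 1 (3.21) and 3 (3.17). C26 library 4, with the least muscle RNA in C26, had the lowest mean of that group, 2.91. Group accounted for 59.7% of the variance of the mean muscle level, so that a fit with it as a covariate has less power to separate the groups. That fit left 0.374% of all tested genes called higher, and 0 of 32 endothelial members passed in edgeR (8 at an unadjusted p under 0.05), with a median log2 fold change of 0.46. There the log2 fold change was 1.13 for Clec14a, 0.77 for Mmrn2, 1.15 for She, 0.64 for S1pr1, 0.54 for Aplnr and 0.20 for Cd34, with edgeR adjusted p from 0.128 to 0.503. Without both C26 libraries 2 and 3, 2.48% of all tested genes were called higher, and 1 member, S1pr1, passed (log2 0.56, edgeR adjusted p = 0.0419).

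Fibroblast genes had higher sums in all C26 libraries than in any control library. Most of each sum was Col3a1, at 2965 to 4354 CPM in C26 and 1661 to 2771 CPM in control. Col3a1 and Col1a1 did not overlap between the groups and did not pass (edgeR adjusted p = 0.0557 and 0.0539). The other 8 of the 10 genes overlapped. All 10 had log2 fold changes above 0, with a median of 0.51, and 5 had an unadjusted p under 0.05 in edgeR. The call rule was met by 1, Mfap5 (log2 1.21, edgeR adjusted p = 0.0313). Mfap5 kept its call only without C26 library 1 or 4 or control library 2 (edgeR adjusted p up to 0.0931). Genes of platelets, which also make the products of Vwf, Selp and Mmrn1, summed to 8.76 to 13.1 CPM in C26 and 9.78 to 14.7 CPM in control, with 0 of 4 tested passing in edgeR (1 at an unadjusted p under 0.05) and Gp9 at 0 to 0.156 CPM. Macrophage genes summed to 632 to 949 CPM in C26 and 733 to 1084 CPM in control. Of 11 tested, 0 passed in edgeR and 5 had an unadjusted p under 0.05 (45.5%, against 25.6% of all tested genes). Their log2 fold changes ran from -0.61 to 0.47 with a median of -0.16, 8 below 0 and 3 above. The mast cell list (5.54 to 7.57 CPM in C26 and 4.73 to 8.54 CPM in control), with Fcer1a at 0 in every library, had 0 of 2 tested genes passing, and edgeR's unadjusted p was under 0.05 for 0. The adipocyte (38.7 to 53.3 CPM in C26 and 35.7 to 49.0 CPM in control) and T and NK cell lists (3.89 to 4.43 CPM in C26 and 3.15 to 7.51 CPM in control) gave the same counts. Neutrophil (5.87 to 10.2 CPM in C26 and 7.35 to 12 CPM in control), epithelial (2.54 to 3.69 CPM in C26 and 2.78 to 4.15 CPM in control) and keratinocyte genes (1 to 1.64 CPM in C26 and 0.667 to 1.65 CPM in control) had 3, 1 and 1 tested members. None of these passed, and edgeR's unadjusted p was under 0.05 for 0 of them. The part of red cell, muscle, fibroblast and macrophage RNA in the endothelial differences was not tested beyond these values.

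**Figure D4:**
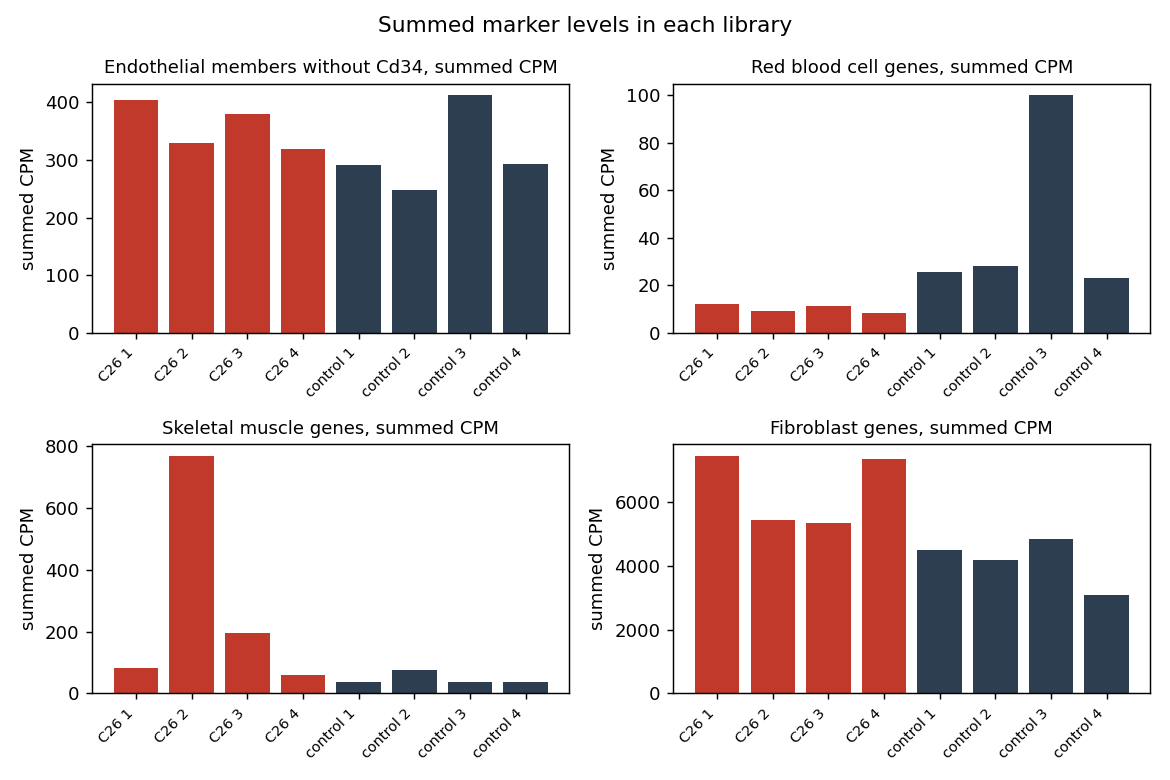
Summed CPM (vertical axes, from 0) of the 36 endothelial genes other than Cd34 and of the red blood cell, skeletal muscle and fibroblast lists in each library, C26 in red and control in dark. The endothelial sum is 319 to 404 in C26 and 248 to 412 in control, with control library 3 the highest in both endothelial and red blood cell genes, and C26 library 2 the highest in muscle genes.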

How the data were processed

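Messenger RNA of 8 tumour samples was analysed, 4 treated with C26 and 4 controls. The authors deposited 1 table of unnormalized read counts, in whole numbers, with a row for every Ensembl gene. The submitters' processing notes name build mm10 with featureCounts 2.0.1, HISAT2 2.2.1 and Trim Galore 0.6.7, but the design text names another route (RSEM, STAR, Picard and Cutadapt). How strand and multi-mapped reads were handled is not stated, so the 10 members whose exons overlap another gene, Cd34, Egfl7 and Lyl1 among them, may include its reads, and the near-identical globin genes may share theirs. Symbols, coordinates and exon lengths came from GENCODE M21 on GRCm38 (52073 of 56691 identifiers; the rest held 0.769% of counts).

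The default filter of edgeR 4.0.16 (filterByExpr) kept 15755 genes. TMM factors and the quasi-likelihood test with robust estimation were used in R 4.3.3 on a model of group alone, and two-sided p-values were adjusted by Benjamini-Hochberg over all 15755 genes. The test was tried on simulated counts first. Log2 CPM used a prior count of 2. Libraries of a group differed by more than sampling noise (chi-square per degree of freedom at least 5.64). In these libraries 3 counts equal 0.137 to 0.182 CPM, and intervals and limits from counts cover counting error only. Alternatives were RLE factors, total library size, no filter, 1 CPM in 4 libraries, DESeq2 1.42.0, limma-voom (limma 3.58.1) with quality weights, replicate number as a block, the mean log2 CPM of 12 muscle genes as a covariate, offsets for transcript length and GC (splines with 4 degrees of freedom, fitted without listed genes), each library left out, and C26 libraries 2 and 3 left out.

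Members, lists and alternatives were chosen with earlier results of these data known. All 37 members are named, with up to 4 called genes of each other list, 2 of each vessel list without a call, and Kdr. Esm1, Angpt2, Pdgfrb, Pdpn, Col1a1, Col3a1 and untested genes were named after their values were seen.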

Additional observations from a re-analysis of the deposited data

Results flagged for a closer look

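Of 111 sets of 4 libraries examined, each a gene in C26 or in control, 7 held 1 library that stood apart from the other 3 by more than Dixon's critical value. Chance gives about 1 such set in 20, so this number is near the chance rate. Cdh5 was 29.5 CPM in C26 library 1 and 24.1 to 24.9 CPM in the other C26 libraries. Tal1 was 3.8 CPM in C26 library 1 and 2.13 to 2.38 CPM in the other C26 libraries. Sox17 was lower in C26 library 1, at 0.686 CPM, than in the other C26 libraries, at 1.45 to 1.6 CPM. Prox1 was 0.37 CPM (7 counts) in C26 library 1 and 0 to 0.0519 CPM in the other C26 libraries. Robo4 was 11.1 CPM in control library 3 and 6.51 to 6.71 CPM in the other control libraries. Prox1 was 0.0472 CPM in control library 1 (1 count) and Myh1 was 0.264 CPM in control library 2 (5 counts), each with 0 counts in the other control libraries.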

How the results depend on the processing

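With all 8 libraries, 6 endothelial members, 5 genes of the other vessel lists, 4 markers of other cell types and 1223 genes in all were past the threshold. RLE factors gave 5 members and a filter of 1 CPM gave 6, of the same 6 genes in both, and DESeq2 and limma-voom gave 8 each, including all 6. Calls over all tested genes rose too, to 11.6% in DESeq2 and 9.75% in limma-voom, against 7.76% in the main fit. Total library size gave 9 members, 9 vessel genes, 8 other markers and 1949 genes (12.4% of those tested). Without a low-count filter 32341 genes were tested, all 37 members among them. The counts were then 12 members (11 higher, 1 lower), 10 vessel genes, 11 other markers and 1948 genes (6.02% of those tested). Correcting for length and GC gave 2 members, 3 vessel genes and 590 genes, and the muscle covariate gave 0 members, 1 vessel gene (not among the 5), 2 other markers and 84 genes. Without C26 libraries 2 and 3 together 1 member passed. Other markers numbered 25 in DESeq2 and 7 in limma-voom. Leaving out 1 library gave 0 to 6 members, 2 to 7 vessel genes, 4 to 10 other markers and 643 to 1457 genes. The causes of these shifts were not tested.

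No pairing by replicate number was seen, with correlations of same-numbered libraries of -0.02, 0.13, -0.02 and 0.09. C26 library 1 lay nearest control library 3, at 0.21. With 4 libraries in a group these correlations cannot exclude a pairing. With the replicate block 8 members passed, 7 higher and Lyl1 lower, of which 4 were among the 6. In that fit 20 other markers and 1184 genes passed (7.52% of those tested).

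The sign of the log2 fold change held in 18 alternatives for 22 of 32 tested members, the 6 that rose included. Cldn5 was 0.04 with total library size, 0.10 in limma-voom, 0.24 with the muscle covariate, 0.10 after correcting for length and GC and 0.02 without both C26 libraries. Sox7 was -0.00 with RLE factors, -0.01 in DESeq2, -0.05 after correcting for length and GC and -0.15 without both C26 libraries, and Tal1 was -0.00 in limma-voom. The muscle covariate gave 0.18 for Ecscr, 0.34 for Rasip1, 0.08 for Gpihbp1, -0.09 for Vcam1 and 0.25 for Esm1. The length and GC correction gave -0.02 for Cd93, -0.05 for Adgrf5, 0.09 for Gpihbp1 and -0.02 for Vcam1, and Gpihbp1 was 0.01 without both C26 libraries. With 1 library left out, Cldn5 ran from -0.15 to 0.24, Cd93 from -0.01 to 0.27, Adgrf5 from -0.05 to 0.35, Egfl7 from -0.04 to 0.24, Apln from -0.44 to 0.06, Tal1 from -0.12 to 0.19, Sox7 from -0.20 to 0.18, Rasip1 from -0.33 to 0.10 and Gpihbp1 from -0.17 to 0.02. Depth limited Vwf, Sele, Selp, Prox1 and Mmrn1, which had 0 to 15 counts in a library.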
